A study of Mus musculus with 18 samples.

Results

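Gene expression was compared between wild-type (WT) mTEClo, the medullary thymic epithelial cells sorted as low for a maturation marker, and WT cTEC, the cortical thymic epithelial cells. The comparison took the 3 WT mTEClo and the 3 WT cTEC libraries out of 18 RNA-sequencing libraries in the series, and the 16411 of 23063 genes that reached 0.1 RPKM in 3 or more of these 6 libraries. RPKM is a level in reads, scaled to the length of the gene and to the size of the library. The samples were labelled as thymus of mice 6 to 8 weeks old, and the cells were sorted by flow cytometry from digested thymic stroma. The strain label B6.129S2-Airetm1.1Doi/J, which names an Aire mutant line, was given to the WT samples too. The other groups of the series were WT mTEChi and the KO mTEClo, KO cTEC and KO mTEChi of Aire-/- mice, with 3 libraries each. The labels named neither the surface protein that separated lo from hi nor whether the libraries of a group came from separate mice, so p-values measure the spread between these libraries, which may be technical.

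Thymic epithelium supports the development of T cells. Cortical epithelial cells attract progenitors, drive their commitment through Notch ligands and present the peptides that select them positively, with a proteasome and proteases of their own. Medullary epithelial cells express genes that are otherwise restricted to other tissues, in part through the regulator Aire, and the Aire-low cells include immature cells, chemokine-producing cells and mature cells that resemble keratinocytes, tuft cells, microfold cells and other peripheral lineages.

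About as many genes passed the test between the populations as did not. In limma fits over all libraries with Benjamini-Hochberg adjustment and a threshold of 0.05, 4624 genes (28.2% of those tested) were higher in mTEClo and 3536 (21.5%) were lower, together 49.7%. The shares of 28.2% higher and 21.5% lower are the background for every count of list members below. The changes upward were also the wider ones: 2395 genes were higher and 1073 lower by 2-fold or more, and 315 were higher and 102 lower by 8-fold or more. The 3 mTEClo libraries all lay above the 3 cTEC libraries for 5220 genes (31.8%) and all below for 4383 genes (26.7%). The median log2 fold change over all tested genes was 0.03. Quantile normalization moved that median to -0.08, with 3870 genes higher and 4767 lower, and centring on housekeeping genes moved it to -0.10, with 3652 higher and 4942 lower. The share of called genes that were higher was therefore 56.7% as deposited, 44.8% after quantile normalization and 42.5% after centring, although no called gene turned its sign under either. The housekeeping list holds Gusb, which was itself called higher by 1.53 on the log2 scale. Centring moved the list's own median from -0.01 to -0.14 and was not repeated without Gusb.

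More genes were detected in mTEClo. At 0.1 RPKM or more, 16374 ± 66.3 genes were detected in mTEClo libraries and 15689 ± 236 in cTEC libraries (SD, n = 3 each), a difference of 686 genes (exact two-sided permutation test, p = 0.1, the smallest that 3 against 3 libraries allow). At 1 RPKM or more the numbers were 12828 ± 95.4 in mTEClo and 12391 ± 216 in cTEC, and all mTEClo libraries again lay above all cTEC libraries. Counting every gene above 0, the difference was 666 genes and the ranges overlapped (exact permutation p = 0.3). The aligned sequence behind these values was 7.79, 4.54 and 18.1 Gb in the mTEClo libraries and 11.4, 11.01 and 10.7 Gb in the cTEC libraries, so depth varied within mTEClo and hardly within cTEC. Pearson correlations of log2 values lay between 0.983 and 0.992 within a population and between 0.890 and 0.924 across the populations.

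**Figure D1:**
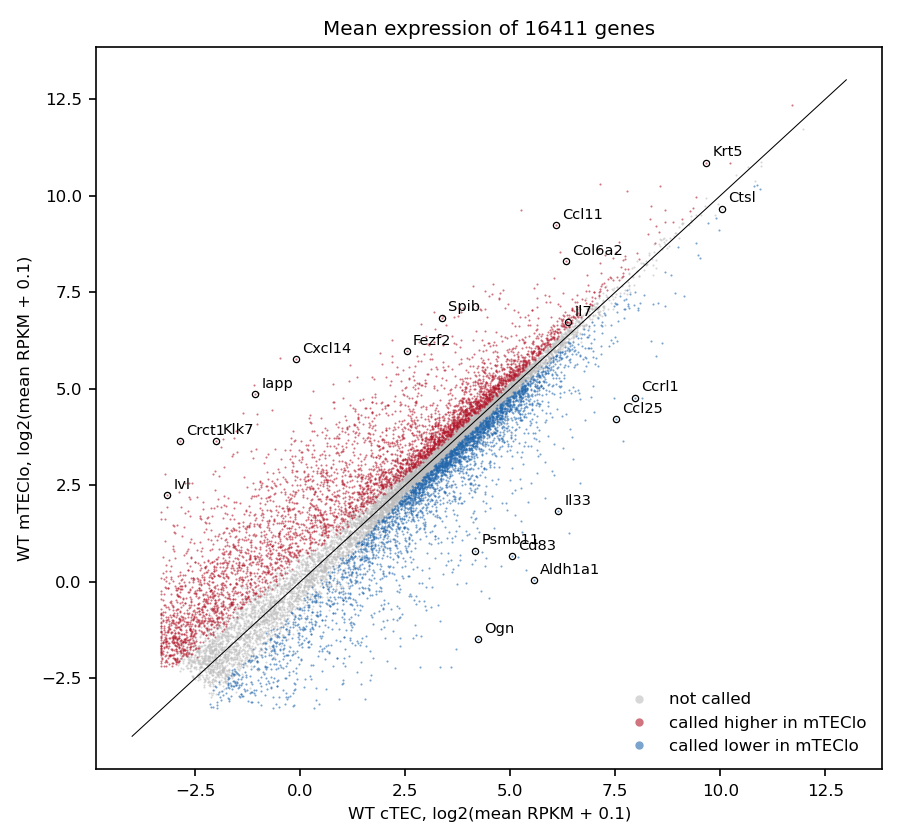
Mean level of every tested gene in WT cTEC (x axis) and WT mTEClo (y axis), as log2 of mean RPKM plus 0.1, with called genes coloured by direction and named genes labelled. The 4624 genes higher in mTEClo spread further from the diagonal than the 3536 lower ones.

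Genes taken as cortical markers were lower in mTEClo almost throughout. Of 15 cortical markers and thymopoietic factors, 13 were lower, against 21.5% of all tested genes, and none was higher. Their median log2 fold change was -2.40, against 0.03 over all tested genes. Their summed level was 1101 to 1210 RPKM in mTEClo and 1997 to 2708 RPKM in cTEC, and Ctsl gave the largest share of it. In these bulk libraries, fewer cells of a type and less RNA per cell cannot be told apart.

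Psmb11, the catalytic subunit of the thymoproteasome found in cortical epithelium, stood at 1.76, 1.40 and 1.797 RPKM in the mTEClo libraries and at 21.8, 20.5 and 11.3 RPKM in the cTEC libraries. The groups were far apart, and cTEC 3 was the lowest of the cortical libraries. The log2 fold change was -3.31 (SE 0.268, limma adjusted p = 8.4e-08). Prss16, the thymus-specific serine protease, showed the same order of libraries, with 27.5, 22.2 and 30.7 RPKM in mTEClo against 335, 321 and 187 RPKM in cTEC (log2 fold change -3.35, SE 0.240, adjusted p = 2.3e-08). Ccl25, the chemokine that draws progenitors through Ccr9, had 18.2, 15.8 and 21.6 RPKM in mTEClo and 206, 236 and 103 RPKM in cTEC (-3.21, SE 0.264, adjusted p = 9.5e-08). All 3 genes were thus lowest in cTEC 3 among the cTEC libraries, and none overlapped with mTEClo.

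Kitl, the stem cell factor, had the smallest adjusted p of the list. It was measured at 3.47, 2.82 and 3.32 RPKM in mTEClo and at 34.3, 38.7 and 30.4 RPKM in cTEC (log2 fold change -3.39, SE 0.157, adjusted p = 4.4e-10). Cxcl12, which retains precursors through Cxcr4, had 28.6, 26.2 and 28.2 RPKM in mTEClo and 133, 131 and 100 RPKM in cTEC. Cd83, which stabilises MHC class II at the surface of cortical cells, differed most, with 1.37, 1.20 and 1.89 RPKM in mTEClo and 28.3, 35.6 and 33.9 RPKM in cTEC (log2 fold change -4.38, SE 0.300, adjusted p = 1.4e-08). Ly75 (the endocytic receptor CD205), Enpep (the aminopeptidase recognised by the antibody Ly51) and the chemokine scavenger Ccrl1 fell by 2.40, 3.20 and 3.22 on the log2 scale. The Notch ligand Dll4, which commits progenitors to the T lineage, was lower by less, at 2.48, 2.70 and 2.21 RPKM in mTEClo and 6.10, 5.56 and 3.38 RPKM in cTEC (-0.96, adjusted p = 0.0034).

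The master regulator Foxn1 was the called member with the smallest difference. It had 25.8, 22.98 and 28.2 RPKM in mTEClo and 36.6, 34.9 and 28.5 RPKM in cTEC (log2 fold change -0.37, SE 0.094, adjusted p = 0.0036). The highest mTEClo library and cTEC 3 lay next to each other without overlapping. Neither Il7, the cytokine on which thymocytes depend, nor Ctsl, the protease that processes the class II invariant chain in cTEC, passed the test: Il7 averaged 106 RPKM in mTEClo and 82.9 RPKM in cTEC (adjusted p = 0.081), and Ctsl 813 RPKM in mTEClo and 1052 RPKM in cTEC (adjusted p = 0.17).

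Foxn1 binds DNA at a short core, GACGC, and the sequences of 2 cortical promoters are shown because they are among the members most depleted from mTEClo. They are the 250 bases before the annotated start, from RefSeq on GRCm38.p6, written 5′ to 3′ on the strand of the gene, with the core or its reverse complement in capitals. The Psmb11 window lies at chr14:54625060-54625309 on the plus strand, with matches 239 and 62 bases before the start, and the Ccl25 window at chr8:4324960-4325209 on the plus strand, with a match 56 bases before the start.
Psmb11: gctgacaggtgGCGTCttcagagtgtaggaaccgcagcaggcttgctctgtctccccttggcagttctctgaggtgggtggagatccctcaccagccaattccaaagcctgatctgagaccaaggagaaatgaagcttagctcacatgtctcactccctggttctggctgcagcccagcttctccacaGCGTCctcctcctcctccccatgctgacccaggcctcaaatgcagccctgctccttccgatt
Ccl25: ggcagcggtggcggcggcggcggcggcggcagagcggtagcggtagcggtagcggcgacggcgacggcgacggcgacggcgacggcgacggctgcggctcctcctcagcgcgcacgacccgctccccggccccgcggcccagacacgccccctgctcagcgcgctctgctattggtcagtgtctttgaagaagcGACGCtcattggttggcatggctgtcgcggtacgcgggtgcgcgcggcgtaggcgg
The core was present on either strand in 6 of the 11 tested cortical members with a promoter in the table (Psmb11, Cxcl12, Ccl25, Kitl, Enpep and Pax1), and in 38.8% of all 11796 tested genes with one. A match of letters describes the window and does not show a bound site.

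**Figure D2:**
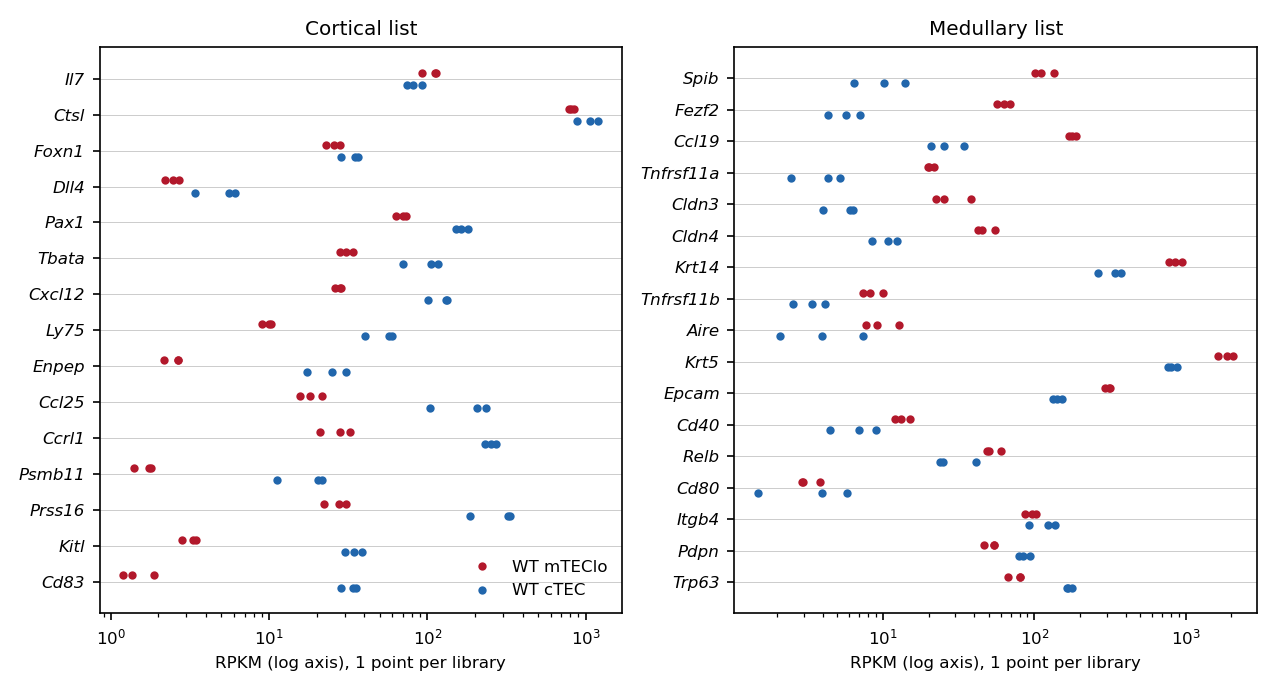
RPKM of cortical and medullary epithelial markers in each library on a log axis, with mTEClo points placed above cTEC points for every gene. The mTEClo points of medullary markers such as Spib and Fezf2 lie to the right of the cTEC points and those of cortical markers such as Kitl and Psmb11 to the left, with mean levels 10.8-fold lower in mTEClo for Kitl and 11.1-fold higher for Fezf2.

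Medullary markers showed the opposite pattern, with a wider mix of sizes. Of 18 measured members, 14 were higher in mTEClo and 2 lower, against 28.2% and 21.5% of all tested genes. Their median log2 fold change was 1.30. The chemokines Ccl21a and Ccl21b, which mark much of the mTEClo population, were not analysed here. Summed levels were 3682 to 4300 RPKM in mTEClo and 1653 to 1891 RPKM in cTEC.

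Spib, an Ets factor also used by microfold cells, had 110, 134 and 101 RPKM in mTEClo and 6.40, 14.1 and 10.2 RPKM in cTEC (log2 fold change 3.54, SE 0.294, adjusted p = 1e-07). Fezf2, a regulator of tissue-restricted genes that acts beside Aire, had 57.0, 63.3 and 69.0 RPKM in mTEClo and 4.35, 7.02 and 5.74 RPKM in cTEC (3.47, SE 0.228, adjusted p = 9.6e-09). For each of these regulators the lowest mTEClo library held several times the level of the highest cTEC library.

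Aire itself was low in both populations. It was listed at 7.75, 9.13 and 12.8 RPKM in mTEClo and at 2.09, 3.95 and 7.39 RPKM in cTEC, against 677 ± 17.9 RPKM in WT mTEChi (SD, n = 3). The populations came close, with mTEClo 1 just above cTEC 3, and the difference (log2 fold change 1.27, SE 0.425, adjusted p = 0.020) was lost without cTEC 1 (0.83) or without mTEClo 3 (1.07).

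Among surface receptors of the tumour necrosis factor family that drive medullary maturation, Tnfrsf11a, the receptor RANK, had 19.9, 20.1 and 21.6 RPKM in mTEClo and 2.49, 4.36 and 5.19 RPKM in cTEC (log2 fold change 2.39, SE 0.279, adjusted p = 3.5e-06). Cd40 was higher by less, at 12.1, 13.1 and 15.04 RPKM in mTEClo and 4.48, 6.95 and 8.99 RPKM in cTEC (1.02, adjusted p = 0.011, lost at 0.75 without cTEC 1). Ccl19, a chemokine that guides thymocytes into the medulla through Ccr7, had 176, 170 and 188 RPKM in mTEClo and 20.7, 34.4 and 25.3 RPKM in cTEC (2.76, SE 0.278). The tight junction genes Cldn3 and Cldn4 were higher by 2.35 and 2.17 on the log2 scale.

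The basal keratins Krt5 and Krt14 were abundant on both sides. Krt5 had 1874, 1636 and 2055 RPKM in mTEClo and 795, 759 and 869 RPKM in cTEC (log2 fold change 1.20, adjusted p = 2.9e-06), and Krt14 had 852, 771 and 937 RPKM in mTEClo and 341, 263 and 372 RPKM in cTEC (1.40, adjusted p = 6.5e-07). The members that were lower are general epithelial or stromal genes as much as medullary ones: Trp63, the p63 factor that maintains stratified epithelium, had 80.5, 67.0 and 80.4 RPKM in mTEClo and 178, 166 and 165 RPKM in cTEC (-1.16, adjusted p = 8.2e-06), and the glycoprotein podoplanin, Pdpn, fell by 0.74 on the log2 scale. Itgb4 (95.4 RPKM in mTEClo, 117 RPKM in cTEC) and the costimulator Cd80 (3.24 RPKM in mTEClo, 3.75 RPKM in cTEC) did not pass the test.

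Transcription factors of the thymic epithelial lineage were lower more often than higher. Of 20 tested, 11 (55%) were lower in mTEClo, against 21.5% of all tested genes, with a median of -0.43. Another 6 (30%) were higher, a share near the 28.2% over all tested genes. The lower ones included patterning genes of the pharyngeal pouch and general epithelial factors. Pax1 had 69.8, 62.9 and 73.0 RPKM in mTEClo and 180, 151 and 163 RPKM in cTEC (-1.26, adjusted p = 2.5e-07). Meis1, Isl1, Hoxa3 and Pax9 fell by 1.04, 1.01, 0.76 and 0.66 on the log2 scale. The higher ones included factors of differentiating epithelium. Ehf, an epithelium-specific Ets factor, had 71.1, 84.0 and 53.6 RPKM in mTEClo and 6.86, 16.7 and 7.84 RPKM in cTEC (2.81, SE 0.295, adjusted p = 1.2e-06). Its relative Elf3 was higher by 1.92, and Klf5 and Grhl3, which act in epidermal and intestinal differentiation, by 1.59 each.

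The largest rises, leaving out predicted gene models, included genes of keratinocyte differentiation and secreted products. Crct1, a gene of the epidermal differentiation complex (chr3:93014205-93015686), had 9.19, 15.2 and 12.9 RPKM in mTEClo and 0.0599, 0.0297 and 0.0205 RPKM in cTEC (log2 fold change 6.50, SE 0.611, adjusted p = 3.7e-07). Cd177, a neutrophil glycoprotein gene on chr7:24743983-24760311, had 55.0, 71.8 and 39.8 RPKM in mTEClo and 0.434, 0.995 and 0.413 RPKM in cTEC (6.34, SE 0.512). Calm4, a calmodulin-like gene of keratinocytes, followed at 30.9, 39.5 and 32.2 RPKM in mTEClo and 0.180, 0.590 and 0.321 RPKM in cTEC (6.30, SE 0.323). None of these genes reached 1 RPKM in a cTEC library. Crct1, under 0.1 RPKM in all of them, passed the detection filter through mTEClo alone.

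Secreted factors stood beside them. Iapp, the islet peptide amylin, had 24.4, 36.9 and 26.0 RPKM in mTEClo and 0.747, 0.0913 and 0.286 RPKM in cTEC (log2 fold change 6.18, SE 0.557, adjusted p = 2.4e-07). Crp, the acute-phase C-reactive protein, was even between mTEClo libraries at 29.5, 28.4 and 30.2 RPKM, against 0.259, 0.608 and 0.325 RPKM in cTEC (5.95, SE 0.313, adjusted p = 1.4e-09). Cxcl14, a chemokine of epithelia, had 53.6, 54.6 and 54.0 RPKM in mTEClo and 1.14, 0.711 and 0.634 RPKM in cTEC (5.90, SE 0.443, adjusted p = 3.6e-08). In WT mTEChi, Crp averaged 9.48 RPKM and Cxcl14 3.58 RPKM, below every mTEClo library. Crct1 and Calm4 went the other way, at 17.6, 19.5 and 16.2 RPKM and at 52.0, 55.7 and 58.3 RPKM in WT mTEChi. Both lay above every mTEClo library, and Iapp, at 34.1, 45.6 and 38.1 RPKM, overlapped with mTEClo. The other genes among the 15 largest rises were Clca4, Klk7, Chga, Cnfn, Sst, Ceacam10, Fam25c, Ivl and Chgb, with log2 fold changes of 5.33 to 6.23.

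The largest falls, again without predicted gene models, included genes of several kinds. Ogn, the small leucine-rich proteoglycan osteoglycin, had 0.292, 0.0959 and 0.387 RPKM in mTEClo and 22.0, 14.6 and 19.3 RPKM in cTEC (log2 fold change -5.79, SE 0.331, adjusted p = 2.8e-09). Serpinf1, the secreted pigment epithelium-derived factor, had 2.24, 2.46 and 2.17 RPKM in mTEClo and 86.6, 67.3 and 98.0 RPKM in cTEC (-5.12). Il33, an alarmin of barrier epithelium, had 3.39, 3.54 and 3.37 RPKM in mTEClo and 70.3, 66.5 and 73.8 RPKM in cTEC (-4.31, SE 0.199, adjusted p = 4.4e-10). Libraries of each population agreed to within a fraction of the difference for each of them.

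Gpm6b, a myelin proteolipid relative, had 1.19, 1.08 and 1.12 RPKM in mTEClo and 43.1, 35.8 and 45.6 RPKM in cTEC (-5.07), and Scn1a, a voltage-gated sodium channel, 1.89, 1.23 and 1.24 RPKM in mTEClo and 37.8, 38.1 and 33.6 RPKM in cTEC (-4.58). Abat, which breaks down the transmitter GABA, had 1.28, 1.08 and 1.31 RPKM in mTEClo and 30.3, 28.1 and 23.4 RPKM in cTEC (-4.37, SE 0.169, adjusted p = 1.1e-10). Itga8, an integrin of mesenchyme, and Prss23, a secreted protease, fell by 4.55 and 4.93 on the log2 scale. Nrg2, Lrrc55, Srpx, Pitpnm3, Myh1, Aldh1a1 and Cd83 completed the 15 largest falls named in this way, between -5.54 and -4.29.

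Genes of the cornified envelope, the cross-linked shell of dying keratinocytes, were higher in mTEClo without exception among those tested. All 21 tested members were higher, against 28.2% of all tested genes, and the median log2 fold change was 3.34. Each had all mTEClo libraries above all cTEC libraries, against 31.8% of all tested genes. At least Ivl, under 0.1 RPKM in every cTEC library, passed the detection filter through mTEClo alone. Sprr3 did not reach the detection filter, and Flg and Sprr2a1 were not analysed here. The summed level was 342 to 484 RPKM in mTEClo, 42.2 to 55.2 RPKM in cTEC and 839 to 906 RPKM in WT mTEChi. Sprr and other family genes share similar sequence, so reads could be split between copies.

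Ivl, involucrin, the early scaffold of the envelope, had 3.65, 6.37 and 3.82 RPKM in mTEClo and 0.0261, 0.00745 and 0 RPKM in cTEC (log2 fold change 5.37, SE 0.268, adjusted p = 9.9e-10). Lor, loricrin, its major late component, had 3.29, 8.90 and 7.26 RPKM in mTEClo and 0.206, 0.283 and 0.392 RPKM in cTEC (3.98, SE 0.546). Sprr1a, a small proline-rich cross-bridging protein, was far more abundant, at 60.9, 79.5 and 74.6 RPKM in mTEClo and 7.19, 9.47 and 7.91 RPKM in cTEC (3.11, SE 0.168, adjusted p = 1.6e-09). The library mTEClo 2 was the highest of the mTEClo libraries for all 3 genes.

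Their enzymes and adhesion proteins moved in the same direction. The protease Asprv1, which processes filaggrin, had 39.8, 60.0 and 49.4 RPKM in mTEClo and 2.33, 4.44 and 4.53 RPKM in cTEC (3.73), and the desquamation protease Klk7 had 10.1, 15.5 and 11.98 RPKM in mTEClo and 0.0164, 0.415 and 0.0168 RPKM in cTEC (6.02, SE 0.847). Dsg1a, the desmoglein of upper epidermal layers, had 35.9, 30.5 and 36.9 RPKM in mTEClo and 1.28, 2.004 and 1.61 RPKM in cTEC (4.34). The transglutaminase Tgm1 showed the smallest difference of the list, 0.78.

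The promoters of involucrin and loricrin are given because AP-1, the factor family of keratinocyte differentiation, binds TGAGTCA, and both windows hold it once. The sequences are RefSeq's 250 bases before the start on GRCm38.p6, 5′ to 3′ on the strand of the gene, with the match or its reverse complement in capitals. Ivl lies on the minus strand at chr3:92573736-92573985 with the match 116 bases before the start, and Lor on the minus strand at chr3:92083143-92083392 with the match 48 bases before it.
Ivl: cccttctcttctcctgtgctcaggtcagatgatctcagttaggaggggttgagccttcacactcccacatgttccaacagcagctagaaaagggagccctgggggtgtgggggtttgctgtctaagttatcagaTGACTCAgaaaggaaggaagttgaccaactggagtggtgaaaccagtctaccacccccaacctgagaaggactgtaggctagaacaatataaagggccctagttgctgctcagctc
Lor: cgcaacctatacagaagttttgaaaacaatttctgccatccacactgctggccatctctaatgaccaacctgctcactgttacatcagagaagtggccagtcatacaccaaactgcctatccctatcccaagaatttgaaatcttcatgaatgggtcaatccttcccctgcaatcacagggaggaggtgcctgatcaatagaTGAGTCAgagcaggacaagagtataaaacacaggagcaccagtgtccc
The letters occurred on either strand in 4 of 16 tested cornified genes with a promoter (Ivl, Lor, Sprr1a and Dmkn) and in 4.44% of all tested genes with one.

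Keratins were higher in mTEClo in layers beyond the basal pair. Of 23 tested, 16 were higher, against 28.2% of all tested genes, and Krt19 alone was lower, with a median of 1.40. Suprabasal and stress keratins led: Krt16 had 18.3, 26.9 and 19.9 RPKM in mTEClo and 0.390, 0.497 and 0.702 RPKM in cTEC (log2 fold change 5.12, SE 0.224, adjusted p = 2.9e-10), Krt79 was higher by 4.88 and Krt77 by 4.69. Krt10, the keratin of spinous cells, had 23.6, 41.4 and 28.7 RPKM in mTEClo and 5.18, 4.49 and 6.03 RPKM in cTEC (2.53). Krt17 was among the most abundant, at 1153, 1176 and 1320 RPKM in mTEClo and 401, 313 and 422 RPKM in cTEC (1.69). The simple-epithelial pair Krt8 and Krt18 differed little, by 0.53 and 0.33. Krt19, another simple keratin, had 51.8, 75.4 and 42.4 RPKM in mTEClo and 119, 84.5 and 125 RPKM in cTEC (-0.98, adjusted p = 0.00083), and came nearest to overlap between mTEClo 2 and cTEC 2.

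Tight junction genes followed, with 15 of 23 higher, against 28.2% of all tested genes. Cldn8 and Cldn1 were lower, and the median was 0.97. Cldn9 had 15.9, 13.8 and 18.6 RPKM in mTEClo and 1.85, 1.82 and 1.62 RPKM in cTEC (log2 fold change 3.11, SE 0.213), Cldn7 had 32.5, 48.2 and 25.6 RPKM in mTEClo and 4.77, 9.38 and 6.13 RPKM in cTEC (2.38), and occludin, Ocln, was higher by 1.90. Cldn8 had 2.94, 3.44 and 3.65 RPKM in mTEClo and 7.22, 8.30 and 8.31 RPKM in cTEC (-1.23). Desmosome and adherens junction genes moved less. Of 21 tested, 9 were higher and 2 lower, and the median was 0.14. Dsg2 and Dsg3, desmosomal cadherins, were higher by 1.60 and 2.49, while desmoplakin (Dsp) and plakoglobin (Jup), the shared plaque proteins, averaged 168 and 63.5 RPKM in mTEClo and 171 and 66.0 RPKM in cTEC and were not called. Cdh11, a cadherin of mesenchyme, had 11.7, 10.7 and 11.7 RPKM in mTEClo and 43.4, 47.3 and 43.8 RPKM in cTEC (-1.97), and Dsc3 fell by 0.75 on the log2 scale.

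**Figure D3:**
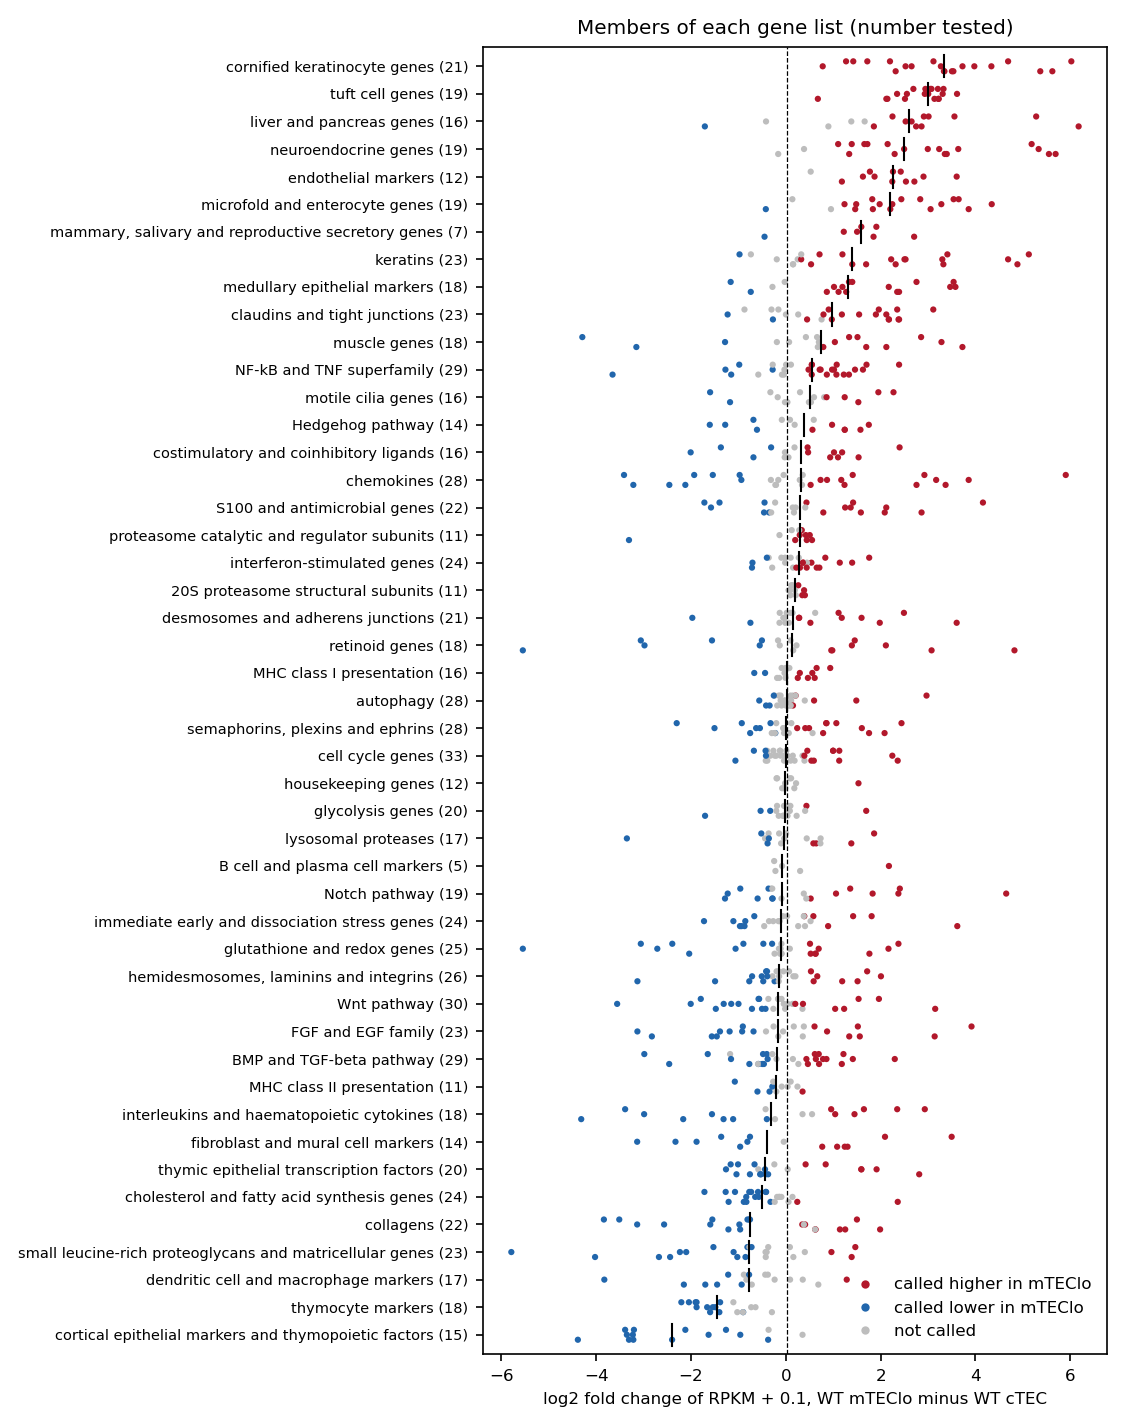
Log2 fold change of each tested member of the gene lists, mTEClo minus cTEC, with the median of each list as a black bar. Cornified, tuft, neuroendocrine and endothelial lists lie wholly or nearly wholly to the right of 0, and cortical and thymocyte markers to the left.

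Tuft cell genes were higher in mTEClo as a block. All 19 tested members were higher, against 28.2% of all tested genes, with no overlap for any, against 31.8%, and the median was 3.005. Sh2d6 was not analysed here. Tuft cells are chemosensory epithelial cells that secrete Il25. Pou2f3, their lineage regulator, had 30.4, 47.6 and 21.3 RPKM in mTEClo and 3.90, 8.81 and 4.20 RPKM in cTEC (log2 fold change 2.55, SE 0.325, adjusted p = 8.3e-06). Trpm5, the cation channel of taste transduction, had 117, 182 and 81.5 RPKM in mTEClo and 8.57, 23.7 and 10.2 RPKM in cTEC (3.22, SE 0.398, adjusted p = 6.1e-06). Gnat3, the taste G protein gustducin, showed the widest difference, at 79.1, 116 and 53.3 RPKM in mTEClo and 3.06, 14.9 and 5.54 RPKM in cTEC (3.61).

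The order of libraries was much the same through the list, apart from Sox9, which was lowest in cTEC 2 (35.6, 29.6 and 35.7 RPKM in cTEC). In mTEClo, replicate 2 was the highest and replicate 3 the lowest for Pou2f3, Trpm5, Gnat3, Dclk1, Ltc4s and Avil, and in cTEC replicate 2 was the highest for all 6. The summed level was 1134, 1683 and 782 RPKM in mTEClo and 128, 272 and 147 RPKM in cTEC. In WT mTEChi it was 305, 427 and 226 RPKM, below every mTEClo library. Il25 itself had 15.995, 25.4 and 14.3 RPKM in mTEClo and 1.41, 4.02 and 2.05 RPKM in cTEC (2.93, SE 0.366), in that same order of libraries. The enzymes of leukotriene synthesis Ltc4s, Alox5 and Alox5ap were higher by 2.94, 2.14 and 3.005. The octamer ATGCAAAT was found on either strand in none of 13 tuft members with a promoter and in 1.72% of all tested genes with one.

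Microfold and enterocyte genes were higher for 16 of 19 tested, with 1 lower and a median of 2.20. Gp2, the bacterial receptor of microfold cells, had 148, 200 and 88.1 RPKM in mTEClo and 21.2, 40.7 and 30.6 RPKM in cTEC (2.20, adjusted p = 3.8e-05), and Ccl20, the chemokine they secrete, 23.8, 33.4 and 17.7 RPKM in mTEClo and 1.28, 2.29 and 1.33 RPKM in cTEC (3.86). Both followed the tuft order within mTEClo. Enterocyte products were scarcer: Vil1, the microvillus protein villin, had 7.69, 11.8 and 5.96 RPKM in mTEClo and 0.767, 1.28 and 0.715 RPKM in cTEC (3.05), and the intestinal regulator Cdx2 had 0.221, 0.422 and 0.266 RPKM in mTEClo and was listed at 0 in all cTEC libraries. Cdx2 thus passed the detection filter through mTEClo alone.

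Neuroendocrine genes were higher for 17 of 19 tested, against 28.2% of all tested genes, and lower for none (median 2.50). At least Snap25 and Sst, under 0.1 RPKM in every cTEC library, passed the detection filter through mTEClo alone. The list summed to 179 to 291 RPKM in mTEClo, 15.2 to 58.6 RPKM in cTEC and 400 to 459 RPKM in WT mTEChi. Chgb, a granule matrix protein, had 9.58, 15.8 and 7.80 RPKM in mTEClo and 0.135, 0.255 and 0.123 RPKM in cTEC (log2 fold change 5.33, SE 0.465, adjusted p = 1.7e-07). Snap25, a synaptic fusion protein, had 4.52, 6.87 and 3.40 RPKM in mTEClo and 0.00999, 0.0270 and 0.0681 RPKM in cTEC (5.18, SE 0.350). Scg5, a chaperone of prohormone convertase, was even at 37.8, 39.8 and 39.6 RPKM in mTEClo and 2.26, 4.23 and 2.95 RPKM in cTEC (3.64). None of the 3 overlapped, and Chgb and Snap25 again peaked in mTEClo 2.

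The hormone-rich members varied from library to library instead. Chga, chromogranin A, had 121, 49.5 and 182 RPKM in mTEClo and 0.607, 0.184 and 39.4 RPKM in cTEC (5.69, SE 1.26, adjusted p = 0.0014). Sst, somatostatin, had 14.5, 1.91 and 4.22 RPKM in mTEClo and 0.0240, 0 and 0 RPKM in cTEC (5.55, SE 0.968). The parathyroid hormone gene Pth followed the order of Chga, with 187, 19.8 and 317 RPKM in mTEClo and 0.289, 0.0993 and 69.8 RPKM in cTEC, so that cTEC 3 lay above mTEClo 2. The difference in Pth (5.91, SE 2.33, adjusted p = 0.045) was lost when cTEC 1, cTEC 2, mTEClo 1 or mTEClo 3 was left out (4.34 to 5.50). All 3 tested parathyroid markers were called higher, and their sum was 26.6 to 326 RPKM in mTEClo and 0.703 to 70.9 RPKM in cTEC. Casr, the calcium-sensing receptor, had 7.85, 6.64 and 7.70 RPKM in mTEClo and 0.414, 0.989 and 0.905 RPKM in cTEC (3.18), while Gcm2, the parathyroid regulator, stayed under 1 RPKM in every library. The part of parathyroid RNA in the Chga values was not tested.

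Of 16 tested liver and pancreas genes, 11 were higher, against 28.2% of all tested genes, and Fgg was lower (median 2.59). All 30 listed genes summed to 169 to 232 RPKM in mTEClo, 17.6 to 33.8 RPKM in cTEC and 797 to 1028 RPKM in WT mTEChi. The 14 entries that were not tested failed the detection filter, among them Alb, Ins2 and Amy2a5. Ambp, under 0.1 RPKM in every cTEC library, passed it through mTEClo alone. Reg3g, an antibacterial lectin, had 123, 158 and 123 RPKM in mTEClo and 11.3, 22.8 and 23.6 RPKM in cTEC (2.86), Ambp, a plasma protein precursor of the liver, had 4.58, 8.73 and 4.22 RPKM in mTEClo and 0, 0.0912 and 0.0590 RPKM in cTEC (5.28). The others stayed under 5 RPKM in every mTEClo and cTEC library, apart from Iapp and the uncalled Hp and Gcg. Muscle genes divided, with 9 of 18 higher and 3 lower (median 0.74). Des, desmin, had 25.3, 24.6 and 28.0 RPKM in mTEClo and 2.20, 3.07 and 2.52 RPKM in cTEC (3.28), and the myogenic regulator Myog 3.14, 5.78 and 2.37 RPKM in mTEClo and 0.106, 0.375 and 0.109 RPKM in cTEC (3.72). The myosin heavy chains Myh1, Myh4 and Myh8 were the lower ones, with 0.531, 0.190 and 0.0825 RPKM of Myh1 in mTEClo and 7.80, 5.23 and 5.83 RPKM in cTEC (-4.29).

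Motile cilia genes were called higher at a share near that over all tested genes, with 5 of 16 against 28.2%. Another 2 were lower, against 21.5%, and the median was 0.51. The ciliary regulator Foxj1 had 8.34, 6.96 and 7.14 RPKM in mTEClo and 2.15, 3.04 and 2.43 RPKM in cTEC (1.53), and the other higher members were Fam183b, Rsph1, Tekt1 and Tppp3, by 2.27, 1.95, 1.24 and 0.86. The axonemal genes Hydin and Ccdc39 fell by 1.60 and 1.17 on the log2 scale. The higher count became 8 without cTEC 2. Of 28 mammary, salivary and reproductive secretory genes, 7 could be tested, of which 6 were higher and Lcn2 lower (median 1.59). The milk casein gene Csn2 had 11.8, 17.8 and 14.7 RPKM in mTEClo and 3.23, 7.73 and 9.44 RPKM in cTEC (1.22, adjusted p = 0.016). The near-identical Dcpp genes stayed under 1 RPKM.

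Signals of the tumour necrosis factor and NF-kB pathways differed in both directions. Of 29 tested members, 17 were higher and 5 lower, against 28.2% and 21.5% of all tested genes, with a median of 0.55. The ligand Tnfsf10 (TRAIL) had 32.6, 27.7 and 32.4 RPKM in mTEClo and 8.74, 10.3 and 9.23 RPKM in cTEC (log2 fold change 1.70, SE 0.110, adjusted p = 8.3e-09), and Ltb, lymphotoxin beta, 5.82, 10.9 and 7.32 RPKM in mTEClo and 1.40, 2.73 and 3.75 RPKM in cTEC (1.63). Among receptors, the decoy Tnfrsf11b (osteoprotegerin) and Tnfrsf21 were higher by 1.33 and 1.46, Ltbr averaged 41.5 RPKM in mTEClo and 42.8 RPKM in cTEC without a call, and Tnfrsf19 (TROY) fell the furthest, with 1.28, 1.60 and 0.968 RPKM in mTEClo and 17.8, 16.4 and 16.7 RPKM in cTEC (-3.65).

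The intracellular branches differed. On the noncanonical side, the kinase Map3k14 (NIK) and the subunits Nfkb2 and Relb were higher by 0.71, 0.98 and 0.87, and Nfkb2 had 61.7, 61.3 and 71.6 RPKM in mTEClo and 31.7, 30.4 and 36.7 RPKM in cTEC. On the canonical side, Nfkb1 had 60.2, 51.5 and 58.5 RPKM in mTEClo and 138, 116 and 125 RPKM in cTEC (-1.15, adjusted p = 1.7e-07), Rel fell by 1.27 on the log2 scale and Rela averaged 36.3 RPKM in mTEClo and 36.5 RPKM in cTEC without a call. Feedback inhibitors were higher: Tnfaip3 (A20) by 1.07, Nfkbie by 1.07 and Nfkbia by 0.55. The count of 5 lower members became 3 when mTEClo 1, mTEClo 2 or cTEC 3 was left out.

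The promoters of Ltb, a ligand, and Nfkbia, an inhibitor, are shown because each holds GGGANTTTC, most of the NF-kB motif, where N is any base. They are RefSeq's 250 bases before the start on GRCm38.p6, 5′ to 3′ on the strand of the gene, with each match or its reverse complement in capitals. Ltb lies on the plus strand at chr17:35194257-35194506 with the match 86 bases before the start, and Nfkbia on the minus strand at chr12:55492648-55492897 with matches 113 and 28 bases before it.
Ltb: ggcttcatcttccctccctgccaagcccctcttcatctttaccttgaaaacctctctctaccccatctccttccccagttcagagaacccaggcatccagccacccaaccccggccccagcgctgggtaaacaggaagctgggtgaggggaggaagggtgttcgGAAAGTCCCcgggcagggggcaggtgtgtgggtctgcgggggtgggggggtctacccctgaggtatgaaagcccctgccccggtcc
Nfkbia: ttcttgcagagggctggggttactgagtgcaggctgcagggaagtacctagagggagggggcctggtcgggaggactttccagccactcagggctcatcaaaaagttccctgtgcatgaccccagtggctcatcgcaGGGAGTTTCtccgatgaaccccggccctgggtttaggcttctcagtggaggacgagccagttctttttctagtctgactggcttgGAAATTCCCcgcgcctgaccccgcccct
These letters were present on either strand in 3 of 25 tested pathway members with a promoter (Nfkb2, Nfkbia and Ltb), in 3 of 19 chemokines (Cxcl1, Cxcl2 and Cxcl9), in 1 of 12 medullary markers (Krt14), and in 1.12% of all tested genes with one. All 7 of these genes were higher in mTEClo, against 28.2% of all tested genes. As whole lists, 17 of 29 pathway members, 12 of 28 chemokines and 14 of 18 medullary markers were higher.

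Chemokines divided between the populations. Of 28 tested, 12 were higher and 8 lower in mTEClo (median 0.32). Besides Ccl19, Cxcl14 and Ccl20, Ccl11 (eotaxin) was one of the most abundant, with 623, 578 and 602 RPKM in mTEClo and 58.5, 86.8 and 58.2 RPKM in cTEC (log2 fold change 3.17, SE 0.227, adjusted p = 2.3e-08). The interferon-inducible Cxcr3 ligands were higher, Cxcl9 by 3.37, Cxcl11 by 2.92 and Cxcl10 by 0.73, and Cxcl10 had 711, 445 and 629 RPKM in mTEClo and 389, 325 and 342 RPKM in cTEC.

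The lower chemokines were the cortical Cxcl12 and Ccl25 and a set also made by dendritic cells. Ccl22, a Ccr4 ligand, had 3.82, 4.49 and 4.82 RPKM in mTEClo and 22.2, 46.6 and 102 RPKM in cTEC (-3.41), Ccl5 16.3, 26.8 and 20.2 RPKM in mTEClo and 59.2, 124 and 200 RPKM in cTEC (-2.46), and Ccl17 fell by 1.93 on the log2 scale. Both Ccl22 and Ccl5 were highest in cTEC 3 and lowest in cTEC 1. In the same libraries, Flt3, the receptor of dendritic cell progenitors, had 0.0478, 0.150 and 0.232 RPKM in mTEClo and 1.33, 2.93 and 7.95 RPKM in cTEC (-3.83, SE 0.678), in the same order within cTEC. The part of dendritic cell RNA in these chemokine values was not tested.

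Of 18 cytokines, 6 were higher and 8 lower (median -0.31), against 28.2% and 21.5% of all tested genes. Beside Il33 and Kitl, the macrophage growth factors Il34 and Csf1 fell by 2.99 and 1.11 on the log2 scale, and Il34 had 2.51, 1.67 and 2.80 RPKM in mTEClo and 24.1, 16.7 and 16.4 RPKM in cTEC. Higher were Il1rn, the interleukin-1 receptor antagonist, with 16.3, 17.4 and 15.9 RPKM in mTEClo and 2.08, 4.50 and 3.37 RPKM in cTEC (2.35), Il25, Il18, Tslp, Lif and Thpo. Among 16 costimulatory and coinhibitory ligands, 8 were higher and 4 lower (median 0.32). Pdcd1lg2 (PD-L2) had 17.6, 13.9 and 16.6 RPKM in mTEClo and 5.05, 6.53 and 4.89 RPKM in cTEC (1.54), while Cd274 (PD-L1) had 74.3, 61.2 and 72.7 RPKM in mTEClo and 75.4, 86.6 and 96.4 RPKM in cTEC (-0.31, adjusted p = 0.046). Cd24a was higher by 2.40 and Cd86, which dendritic cells also carry, was lower by 2.01 at under 3 RPKM in all libraries. The count of lower members became 2 without cTEC 2 or cTEC 3.

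Antigen presentation genes were abundant in both populations and differed by small amounts. Their counts stand against 28.2% of all tested genes higher and 21.5% lower. Of 11 MHC class II genes, 4 were lower, H2-Oa alone was higher and the median was -0.20. The call of H2-Oa was lost under both other scalings and without cTEC 1, cTEC 2, mTEClo 1 or mTEClo 3, and 2 members in place of 4 were lower without cTEC 1 or mTEClo 2. Cd74, the invariant chain, averaged 3367 RPKM in mTEClo and 4042 RPKM in cTEC, and H2-Ab1 averaged 1884 RPKM in mTEClo and 1999.8 RPKM in cTEC, and neither passed the test. The peptide editors were lower: H2-DMa had 68.3, 61.5 and 75.0 RPKM in mTEClo and 157, 128 and 147 RPKM in cTEC (log2 fold change -1.07, SE 0.136, adjusted p = 8.1e-06), and H2-DMb1 fell by 0.60 on the log2 scale. Ciita, the class II transactivator, had 30.3, 26.6 and 31.8 RPKM in mTEClo and 43.0, 32.0 and 37.9 RPKM in cTEC (-0.34, adjusted p = 0.014), and its call was lost without cTEC 1 (-0.24) or mTEClo 2 (-0.27). Reads of related class I and class II genes could be shared between copies.

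Of 16 class I genes, 7 were higher and 2 lower, and their median of 0.04 became -0.08 after quantile normalization and -0.10 after housekeeping centring. B2m, the light chain, had 5272, 5289 and 5175 RPKM in mTEClo and 3132, 3711 and 3211 RPKM in cTEC (0.65, adjusted p = 0.022), and the heavy chains H2-K1 and H2-D1 were higher by 0.61 and 0.56. Nlrc5, the class I transactivator, had 25.3, 26.3 and 26.8 RPKM in mTEClo and 11.1, 14.04 and 16.2 RPKM in cTEC (0.94, adjusted p = 0.00012). The trimming peptidase Erap1 fell by 0.66 on the log2 scale.

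Among 11 catalytic and regulatory proteasome subunits, 7 were higher and Psmb11 alone was lower (median 0.29). The constitutive catalytic subunit Psmb5, which occupies the place that Psmb11 takes in the thymoproteasome, had 40.2, 40.8 and 42.2 RPKM in mTEClo and 30.4, 30.4 and 29.8 RPKM in cTEC (0.44, SE 0.071, adjusted p = 8.1e-05), and its immunoproteasome counterpart Psmb8 101, 113 and 117 RPKM in mTEClo and 69.2, 68.2 and 88.8 RPKM in cTEC (0.55). Of the 11 structural subunits of the 20S core, 4 were higher and none lower (median 0.19). Lysosomal proteases were higher for 4 of 17 and lower for 4 (median -0.03), shares near the 28.2% and 21.5% over all tested genes. Ctsc had 49.1, 64.2 and 39.7 RPKM in mTEClo and 9.59, 18.3 and 14.6 RPKM in cTEC (1.86), while Ctss, the invariant-chain protease of other presenting cells, averaged 34.2 RPKM in mTEClo and 27.6 RPKM in cTEC without a call. Of 28 autophagy genes, 5 were higher and 4 lower, and the median of 0.03 became -0.01 after quantile normalization and -0.10 after centring. The lower count became 2 without cTEC 2 or mTEClo 3, and centring gave 3 higher and 8 lower. Map1lc3a stood out, with 116, 111 and 136 RPKM in mTEClo and 47.1, 42.7 and 39.5 RPKM in cTEC (1.49, SE 0.132, adjusted p = 2e-07).

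Developmental signalling pathways differed in both directions, and their counts stand against 28.2% of all tested genes higher and 21.5% lower. In the Notch pathway, 7 of 19 tested genes were higher and 7 lower (median -0.09). The canonical ligands were lower: Jag2 had 52.9, 54.9 and 57.7 RPKM in mTEClo and 153, 101 and 139 RPKM in cTEC (log2 fold change -1.22, adjusted p = 5.1e-06), Dll1 18.8, 16.9 and 20.02 RPKM in mTEClo and 53.1, 34.6 and 50.4 RPKM in cTEC (-1.28), and Jag1 fell by 0.28 on the log2 scale. Receptors and feedback targets were higher: Notch3 by 1.06, Heyl by 2.37 and Nrarp by 2.41, the last with 10.4, 11.7 and 11.2 RPKM in mTEClo and 2.06, 2.16 and 1.84 RPKM in cTEC (SE 0.132, adjusted p = 1.8e-09). Dll3, a ligand that does not activate Notch in trans, was higher by 4.65. Without cTEC 1 or mTEClo 2, 4 genes in place of 7 were called lower.

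In the Wnt pathway, 12 of 30 tested genes were lower and 7 higher (median -0.16). Axin2, a transcriptional target of the pathway, had 3.22, 3.31 and 3.67 RPKM in mTEClo and 7.49, 7.02 and 6.18 RPKM in cTEC (-0.997, adjusted p = 1.5e-05), and the transcription factor Tcf7l2 fell by 1.15 on the log2 scale. Ligands divided: Wnt3a, Wnt9a, Wnt6 and Wnt4 fell by 3.56, 2.004, 1.79 and 0.56, and Wnt10b, Wnt10a and Wnt5a were higher by 3.15, 1.96 and 1.04. Sfrp1, a secreted antagonist, had 135, 119 and 140 RPKM in mTEClo and 46.4, 56.9 and 34.9 RPKM in cTEC (1.54). Tcf7, which thymocytes also express, was lower by 1.48 and highest in cTEC 3.

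In the BMP and TGF-beta pathways, 12 of 29 tested genes were higher and 11 lower (median -0.20). Bmp4, the ligand that sustains Foxn1, had 0.533, 0.938 and 0.534 RPKM in mTEClo and 6.23, 4.59 and 6.82 RPKM in cTEC (-2.98, SE 0.374), whereas Bmp2 and Bmp7 were higher by 2.30 and 0.79. The receptors Tgfbr2 and Tgfbr3 fell by 1.65 and 2.46, and Tgfbr2 had 16.7, 14.5 and 16.4 RPKM in mTEClo and 52.6, 48.2 and 48.7 RPKM in cTEC. The antagonist chordin, Chrd, was higher by 1.41 and follistatin, Fst, lower by 1.15. In the FGF and EGF families, 9 of 23 tested genes were lower and 7 higher (median -0.16). The growth factor Fgf21 had 22.5, 24.8 and 28.3 RPKM in mTEClo and 1.04, 1.53 and 2.41 RPKM in cTEC (3.92, SE 0.450), the receptor Fgfr4 was higher by 3.14 and Fgf1 was lower by 2.82. Fgfr2, the receptor that thymic epithelium needs to expand, averaged 72.3 RPKM in mTEClo and 75.0 RPKM in cTEC without a call, and the feedback inhibitors Spry1, Spry2 and Dusp6 fell by 1.39, 0.91 and 0.68 on the log2 scale.

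In the Hedgehog pathway, 6 of 14 genes were higher and 4 lower (median 0.37), with the ligands Shh and Ihh and the target Gli1 under 0.5 RPKM in every library. The coreceptor Gas1 had 142, 135 and 173 RPKM in mTEClo and 395, 300.4 and 399 RPKM in cTEC (-1.28), and the binding protein Hhip 20.3, 16.8 and 20.9 RPKM in mTEClo and 6.14, 9.12 and 4.65 RPKM in cTEC (1.57). Of 28 semaphorins, plexins and ephrins, 11 were higher and 8 lower, and the median of 0.01 became -0.08 after quantile normalization and -0.12 after centring. Sema6a was higher by 2.44 and Sema3c lower by 2.30.

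Matrix genes were lower more often than higher in mTEClo. Of 23 small leucine-rich proteoglycans and matricellular genes, 12 were lower and 3 higher (median -0.77). They summed to 1421 to 1484 RPKM in mTEClo and 1790 to 2073 RPKM in cTEC. Prelp, a basement membrane anchor, had 13.4, 10.7 and 13.3 RPKM in mTEClo and 248, 160 and 209 RPKM in cTEC (log2 fold change -4.02, SE 0.262, adjusted p = 9e-09), Dcn (decorin) 69.2, 64.8 and 82.3 RPKM in mTEClo and 402, 358 and 410 RPKM in cTEC (-2.44), and Fmod and Bgn fell by 2.67 and 2.23 on the log2 scale. The elastic fibre genes Eln and Fbn1 were higher, by 1.39 and 1.47, and so was Mgp, by 0.96.

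Of 22 collagen chains, 12 were lower and 8 higher (median -0.76). Their summed level went the other way, at 951 to 1237 RPKM in mTEClo and 595 to 747 RPKM in cTEC. Col7a1, the anchoring fibril, had 1.81, 1.43 and 1.63 RPKM in mTEClo and 21.5, 14.2 and 24.1 RPKM in cTEC (-3.51, SE 0.177, adjusted p = 1e-09), and the basement membrane chains Col4a5 and Col4a6 fell by 2.57 and 3.84. The other chains of that network, Col4a1 and Col4a2, were higher by 0.63 and 0.35. Col6a1 and Col6a2, beaded filament chains, were higher by 1.501 and 1.99, with 315, 273 and 365 RPKM of Col6a2 in mTEClo and 84.4, 67.8 and 87.5 RPKM in cTEC. Of 26 hemidesmosome, laminin and integrin genes, 10 were lower and 7 higher (median -0.15). Nid1, a laminin linker, fell by 3.13 and its relative Nid2 was higher by 0.66, and Itgb8, an activator of TGF-beta, was higher by 2.01.

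Lipid synthesis genes were mostly lower in mTEClo. Of 24 cholesterol and fatty acid synthesis genes, 15 were lower, against 21.5% of all tested genes, and 2 higher (median -0.50). The regulators Srebf1 and Srebf2 fell by 0.88 and 0.57 on the log2 scale, and the enzyme Hmgcs1 had 14.5, 14.1 and 12.7 RPKM in mTEClo and 26.5, 32.2 and 38.1 RPKM in cTEC (-1.21, adjusted p = 3.5e-07). Scd1, a fatty acid desaturase, went the other way, with 49.2, 46.5 and 46.7 RPKM in mTEClo and 7.59, 11.2 and 9.05 RPKM in cTEC (2.36, adjusted p = 9.5e-08).

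Retinoid and redox genes divided in both directions. Aldh1a1, which makes retinoic acid, had 0.869, 0.691 and 1.22 RPKM in mTEClo and 52.7, 39.6 and 48.9 RPKM in cTEC (log2 fold change -5.54, SE 0.392, adjusted p = 2e-08), and Aldh1a3 fell by 3.06. In all, 7 of 18 retinoid genes were higher and 6 lower, and the median of 0.13 became -0.01 after housekeeping centring. Of 25 glutathione and redox genes, 8 were higher and 9 lower (median -0.11), the lower count becoming 15 after centring. Nqo1 had 9.56, 7.94 and 11.1 RPKM in mTEClo and 54.3, 54.3 and 42.4 RPKM in cTEC (-2.39), and the glutathione transferases Gstm1 and Gstm2 fell by 2.04 and 2.71. Gpx3, a secreted peroxidase, was far more abundant in mTEClo, with 1108, 1031 and 1224 RPKM in mTEClo and 210, 263 and 181 RPKM in cTEC (2.38, SE 0.136, adjusted p = 2.9e-09).

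Glycolysis genes were mostly uncalled, with 2 of 20 higher and 3 lower (median -0.02, with 5 lower after quantile normalization and 6 after centring). Gapdh, Pgk1, Pgam1 and Eno1, which have many pseudogenes, were listed at only 2.60 to 5.27 RPKM, so reads shared with those copies may be missing from their levels. Of 12 housekeeping genes, Gusb alone was called, at 44.3, 46.6 and 42.5 RPKM in mTEClo and 13.6, 16.6 and 15.8 RPKM in cTEC (1.53), and the list's median was -0.01.

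Genes of the cell cycle were called higher at a share near that over all tested genes. Of 33 cell cycle genes, 10 (30.3%) were higher and 4 (12.1%) lower, against 28.2% and 21.5%. The median of 0.01 became -0.12 after housekeeping centring and -0.27 after quantile normalization, with 7 and 8 genes lower under these scalings. Mki67 averaged 4.12 RPKM in mTEClo and 3.62 RPKM in cTEC and Top2a 4.002 RPKM in mTEClo and 4.73 RPKM in cTEC, neither called. Inhibitors of the cycle divided. Cdkn2b had 10.6, 14.7 and 10.5 RPKM in mTEClo and 1.91, 2.78 and 2.64 RPKM in cTEC (log2 fold change 2.25, SE 0.183, adjusted p = 8.7e-08), and Cdkn2a 5.33, 10.99 and 6.09 RPKM in mTEClo and 1.01, 1.79 and 1.21 RPKM in cTEC (2.36). Cdkn1a was higher by 1.13 and Cdkn1c by 0.999. Cdkn1b and Cdkn2c fell by 0.42 and 0.43 on the log2 scale. The D cyclins divided, with Ccnd1 higher by 1.13, Ccnd2 lower by 1.06 and Ccnd3 uncalled.

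Of 24 interferon-stimulated genes, 12 were higher and 3 lower (median 0.29). Irf7, the regulator of the response, had 236, 245 and 264 RPKM in mTEClo and 109, 104 and 126 RPKM in cTEC (1.14, adjusted p = 1.6e-07), and Oasl1 and Oas3 were higher by 1.76 and 1.40. Ifit1, Irf1 and Gbp2 fell by 0.71, 0.70 and 0.40 on the log2 scale. Most of the response element, GAAAGTGAA on either strand, was present in 4 of 18 members with a promoter (Ifit1, Ifit3, Oas3 and Gbp2) and in 0.644% of all tested genes with one. Of these 4 members, 1 was higher and 2 were lower in mTEClo.

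Of 22 S100 and antimicrobial genes, 10 were higher and 6 lower (median 0.31). Chi3l1, a chitinase-like protein, had 36.2, 51.0 and 31.7 RPKM in mTEClo and 1.52, 4.61 and 1.26 RPKM in cTEC (4.16), Pglyrp1 was higher by 2.12, and the beta-defensin Defb1 had 14.5, 14.6 and 14.3 RPKM in mTEClo and 52.4, 46.2 and 44.8 RPKM in cTEC (-1.72). The lower count became 3 without cTEC 2, mTEClo 1 or mTEClo 2. Of 24 immediate early and dissociation stress genes, 6 were higher and 7 lower (median -0.09), shares near the 28.2% and 21.5% over all tested genes. Egr2 and Egr3 were higher by 1.81 and 3.62. Egr1, Fosb and Zfp36 fell by 0.85, 1.10 and 0.66 on the log2 scale, with Fosb at 378, 248 and 385 RPKM in mTEClo and 822, 514 and 852 RPKM in cTEC, the lowest library of each population being replicate 2.

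Markers of other cells moved with the populations, and their part in the results above was not tested. Thymocyte markers were lower for 12 of 18, against 21.5% of all tested genes, and higher for none (median -1.44). Their sum was 30.3 to 68.0 RPKM in mTEClo and 71.3 to 153 RPKM in cTEC. Cd3g, a subunit of the T cell receptor complex, had 1.76, 3.07 and 5.04 RPKM in mTEClo and 6.95, 19.1 and 11.6 RPKM in cTEC (-1.90). No thymocyte marker was at 0 in every library of a population, mTEClo 3 was the highest of its group for Cd3g, Thy1 and Dntt, and only 7 members were called without mTEClo 1. Dendritic cell and macrophage markers were lower for 7 of 17 and higher for Laptm5 alone (median -0.77), with sums of 71.3 to 94.1 RPKM in mTEClo and 44.0 to 104 RPKM in cTEC. Their lower count became 3 without cTEC 3 and 4 without cTEC 2. Of 5 testable B cell markers, Cd79b alone was higher (2.18), whereas Pax5 did not reach the detection filter.

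Endothelial markers were higher in mTEClo for 11 of 12, against 28.2% of all tested genes, and lower for none (median 2.25). Their levels were low and summed to 34.5 to 39.7 RPKM in mTEClo and 5.07 to 10.8 RPKM in cTEC. Cdh5, the endothelial cadherin, had 3.84, 3.78 and 3.38 RPKM in mTEClo and 0.0745, 0.342 and 0.284 RPKM in cTEC (3.60, SE 0.498), and Pecam1 6.46, 6.00 and 5.91 RPKM in mTEClo and 0.498, 1.82 and 1.87 RPKM in cTEC (2.25). Fibroblast and mural cell markers divided, with 6 of 14 higher and 7 lower (median -0.40), and summed to 332 to 433 RPKM in mTEClo and 114 to 168 RPKM in cTEC. The higher ones were Rgs5, Acta2, Myh11, Gli1, Pi16 and Pdgfra, by 0.77 to 3.50, the last 3 of them at 1.06 RPKM or less on average. The smooth muscle actin Acta2 had 179, 186 and 218 RPKM in mTEClo and 41.7, 34.1 and 65.6 RPKM in cTEC (2.09), and the pericyte gene Rgs5 123, 92.3 and 137 RPKM in mTEClo and 7.15, 13.4 and 10.9 RPKM in cTEC (3.50). The fibroblast collagen genes Col1a1, Col1a2 and Col3a1 were lower, by 0.96, 3.13 and 0.75, as were Dpt, Lum, Thy1 and the pericyte proteoglycan Cspg4 (-2.33), and the mural cell receptor Pdgfrb averaged 1.03 RPKM in mTEClo and 1.09 RPKM in cTEC without a call. The count of lower members became 4 without cTEC 3.

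Of 4 testable neural crest markers, 2 were higher, Ngfr among them, and 1 was lower (median 0.02, or -0.06 and -0.11 under the other scalings), and Sox10 did not reach the filter. The globin genes Hba-a1 and Hba-a2 were listed at 0 in both populations, and the only testable erythroid marker, Alas2, was not called. Among 5 sex-linked genes, Xist had 33.3, 61.6 and 31.0 RPKM in mTEClo and 11.98, 27.3 and 23.9 RPKM in cTEC (1.005, adjusted p = 0.046), and the Y-linked Ddx3y averaged 12.9 RPKM in mTEClo and 19.8 RPKM in cTEC without a call. Both were present in all 6 libraries. Ddx3y and the Y-linked Eif2s3y and Kdm5d lay higher in every cTEC library than in every mTEClo library, as did 26.7% of all tested genes. Eif2s3y, Kdm5d and Uty were not called either, and Uty overlapped. The balance of sexes in the libraries was not tested.

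**Figure D4:**
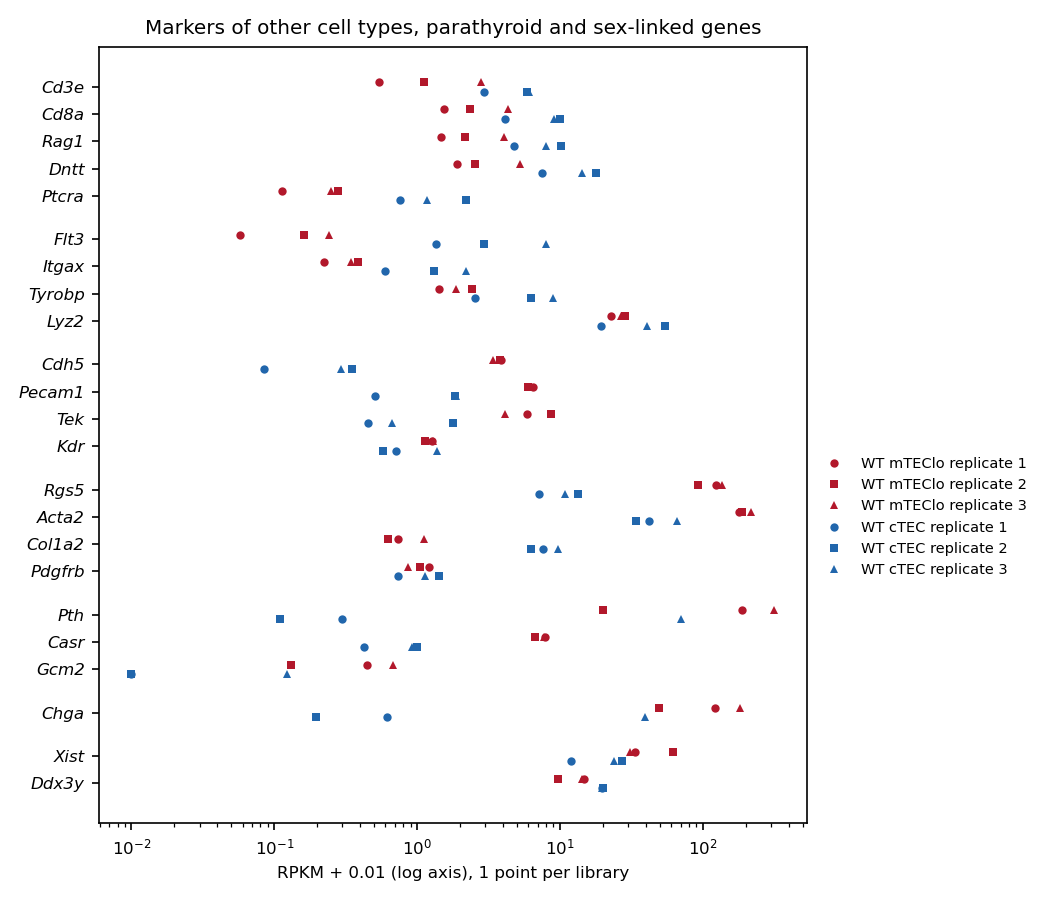
RPKM plus 0.01, on a log axis, of markers of other cell types in each mTEClo and cTEC library, with a symbol for each replicate. Endothelial and mural genes such as Cdh5 and Rgs5 lie higher in mTEClo, thymocyte genes such as Cd3e lie higher in cTEC, and Pth spreads from 0.0993 RPKM in cTEC 2 to 317 RPKM in mTEClo 3.

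The populations of Aire-/- mice gave the same comparison with other libraries. The Aire gene does not serve as a check of the labels here: Aire was listed at 33.1, 21.5 and 16.3 RPKM in libraries labelled KO mTEClo, at 95.6, 35.9 and 27.0 RPKM in those labelled KO cTEC and at 1126, 1001 and 1091 RPKM in those labelled KO mTEChi, none of them below WT. A level over the whole gene does not show which part of it is deleted. In the libraries labelled KO, 22% of the tested genes were higher and 20.5% lower in mTEClo.

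Most differences were kept in direction. Of the 4624 genes higher in WT mTEClo, 91.7% had the same sign in the libraries labelled KO and 63.9% were called there in the same direction. Of the 3536 lower ones, 95.9% had the same sign and 71.0% were called. Sizes were smaller on both sides: the median log2 fold change of the higher genes was 1.04 in WT and 0.56 in KO, and that of the lower genes -0.63 in WT and -0.48 in KO. Since the genes were chosen by their WT values, these shares and medians are a description. The difference between genotypes passed the test for 833 genes (5.08%), of which 685 had a positive difference, that is, a WT fold change above the KO fold change, and 148 a negative difference. Of the 833, 753 were also called in WT. That count rests on few libraries: leaving out 1 library gave 510 (without KO mTEClo 3) to 1528 (without KO cTEC 3), and 526 without WT cTEC 1, and a fit of 4 groups without mTEChi gave 259.

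Cornified genes differed less between the populations in the libraries labelled KO. Their median log2 fold change was 3.34 in WT and 1.68 in KO, and involucrin, Ivl, differed by 5.37 in WT and 2.23 in KO. Their sum was higher in both KO populations, at 562 to 738 RPKM in KO mTEClo and 342 to 484 RPKM in WT mTEClo. In cTEC it was 150 to 251 RPKM in KO and 42.2 to 55.2 RPKM in WT. Krt16 had 18.3, 26.9 and 19.9 RPKM in WT mTEClo and 0.390, 0.497 and 0.702 RPKM in WT cTEC, against 20.6, 16.5 and 11.9 RPKM in KO mTEClo and 2.44, 2.90 and 4.40 RPKM in KO cTEC (genotype difference 2.82, SE 0.317, adjusted p = 0.00048). For Krt16, the mTEClo levels of the genotypes overlapped, and the KO cTEC level was the one that lay apart from its WT counterpart. Fezf2 also had a higher level in KO cTEC than in WT cTEC, with KO cTEC at 31.9, 19.2 and 13.4 RPKM and WT cTEC at 4.35, 7.02 and 5.74 RPKM, while mTEClo held 56.8, 46.5 and 40.3 RPKM in KO and 57.0, 63.3 and 69.0 RPKM in WT (genotype difference 2.24, adjusted p = 0.0012). Its mTEClo levels did not overlap either, KO lying below WT, but KO mTEClo 1 and WT mTEClo 1 nearly touched at 56.8 and 57.0 RPKM.

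The libraries labelled KO cTEC held more RNA of medullary and tuft genes than WT cTEC. The medullary markers summed to 2089 to 2137 RPKM in KO cTEC and 1653 to 1891 RPKM in WT cTEC. The tuft genes summed to 1482, 668 and 667 RPKM in KO cTEC and 128, 272 and 147 RPKM in WT cTEC. In mTEClo the tuft sum was higher in KO as well, at 2387, 2658 and 2570 RPKM against 1134, 1683 and 782 RPKM in WT. The medullary sum was lower in KO mTEClo, at 3201 to 3394 RPKM against 3682 to 4300 RPKM in WT mTEClo. Krt5 weighed most in it, at 1310, 1412 and 1373 RPKM in KO mTEClo and 1874, 1636 and 2055 RPKM in WT mTEClo. Single members differed: Ccl19, Tnfrsf11a and, narrowly, Fezf2 were also lower in every KO mTEClo library. Spib, Cldn3, Cldn4 and Aire were higher in every KO mTEClo library, and Krt14 and Tnfrsf11b overlapped. KO cTEC 1 stood apart with the highest Aire, Spib and Trpm5 of the KO cTEC libraries. The sum of cortical markers was 1594, 2707 and 1964 RPKM in KO cTEC and 2594, 2708 and 1997 RPKM in WT cTEC, so that KO cTEC 1 was the lowest and KO cTEC 2 lay within the WT range. Without KO cTEC 1, 884 genes passed the test of the genotype difference. The part of these medullary and tuft levels in the 833 genotype differences was not tested.

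Genotype differences were ranked among called genes without overlap between WT mTEClo and WT cTEC, with a mean of 1 RPKM or more in a population and without predicted models. For Iapp, the highest in that ranking, the mTEClo levels lay apart as well. It had 24.4, 36.9 and 26.0 RPKM in WT mTEClo and 0.747, 0.0913 and 0.286 RPKM in WT cTEC, against 3.07, 5.23 and 4.36 RPKM in KO mTEClo and 2.02, 2.94 and 0.399 RPKM in KO cTEC (genotype difference 4.66, SE 0.788, adjusted p = 0.0030). The mTEClo levels of the genotypes did not overlap. Sprr2d, Spink3, Fabp9 and Skint2 were the other 4 genes at the positive end of the ranking, with 4.58, 4.38, 4.37 and 4.01. Skint2, a relative of Skint1, which selects skin gamma-delta T cells, had 21.4, 22.6 and 24.2 RPKM in WT mTEClo and 0.885, 2.03 and 1.98 RPKM in WT cTEC, against 41.7, 33.3 and 21.7 RPKM in KO mTEClo and 59.1, 35.3 and 22.1 RPKM in KO cTEC. Outside the ranking, since its WT libraries overlapped, the plasma cell gene Igj had a larger difference of 5.16 (SE 1.01, adjusted p = 0.0076). It had 5.76, 5.04 and 10.5 RPKM in WT mTEClo and 9.54, 6.85 and 2.44 RPKM in WT cTEC, against 0.123, 0.238 and 0.152 RPKM in KO mTEClo and 17.1, 1.73 and 14.5 RPKM in KO cTEC.

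In the opposite direction, Acta1, the skeletal muscle actin, had 0.960, 1.01 and 0.310 RPKM in WT mTEClo and 0.0273, 0.186 and 0.0605 RPKM in WT cTEC, against 8.76, 4.62 and 3.12 RPKM in KO mTEClo and 0, 0.0551 and 0.0202 RPKM in KO cTEC (genotype difference -3.26, SE 0.679, adjusted p = 0.011). Nrg2, Ndufa4l2, Fam183b and Prrt1 followed in the ranking with -3.12, -2.63, -2.62 and -2.55. The cortical genes Kitl, Prss16, Psmb11 and Ccl25 differed by -3.39, -3.35, -3.31 and -3.21 in WT and by -3.08, -2.71, -2.78 and -2.71 in KO, and their genotype differences did not pass the test. Cd83 and Il33 were cTEC genes whose difference was larger in WT, at -4.38 in WT and -2.73 in KO for Cd83 and at -4.31 in WT and -2.65 in KO for Il33.

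**Figure D5:**
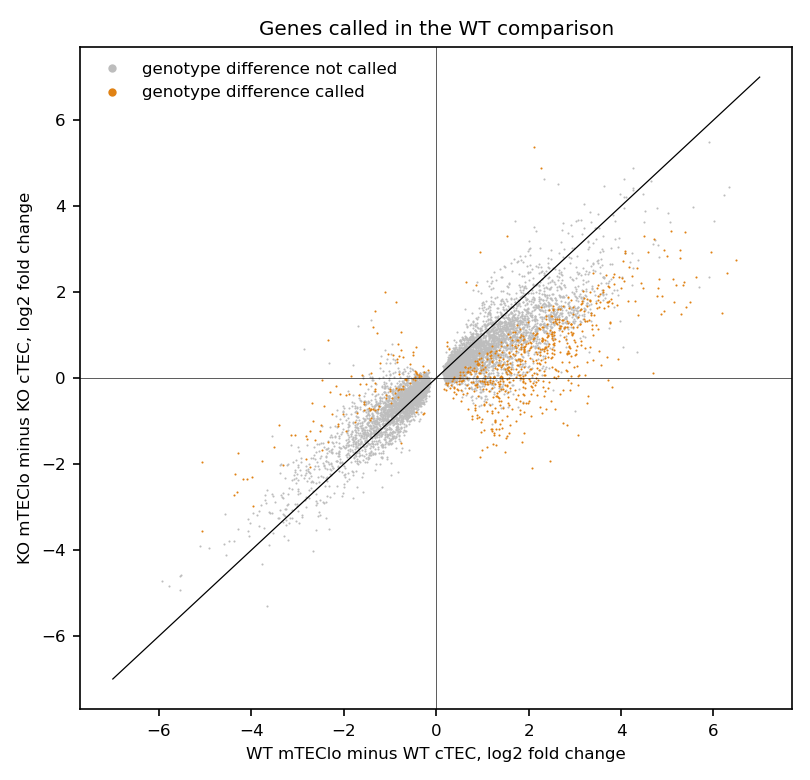
Log2 fold change of mTEClo minus cTEC in WT (x axis) and in the libraries labelled KO (y axis) for each gene called in WT, with a line where both are equal. Orange points are genes whose genotype difference was called; most of them lie to the right of 0 and below the line, as Iapp does with 6.18 in WT and 1.52 in KO.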

How the data were processed

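RNA sequencing of sorted thymic epithelial cells was deposited as gene tables, 1 per library. RPKM per gene was computed by the authors before they deposited the files, and the same tables give a signal, the aligned bases per gene, which was used here only for depth. CASAVA 1.8.2 and mm10 are named per the submitters' processing notes, while for the aligner, the annotation and the use of strand the answer is not given in the sources used here. Columns with RPKM were read from all 18 libraries. Genes at 0.1 RPKM or more in 3 of the 6 libraries were kept, log2(RPKM + 0.1) was fitted with limma 3.58.1 (R 4.3.3) with 6 group means and 12 residual degrees of freedom, and p-values were adjusted over all 16411 genes. A gene under the threshold in every library of a population was kept through the other population alone. Fold changes are on that log2 scale and understate the change of low genes. Without deposited read counts, no counting interval was given. Detected genes were compared by exact permutation tests (Python 3.11.15, scipy 1.17.1).

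The text names the 15 largest rises and falls with a mean of 1 RPKM or more in the higher population and no overlap, every cortical and medullary marker, up to 4 members of each list by adjusted p with its highest uncalled member, and 5 genotype differences in each direction. Some of the genes so chosen are not reported here. Other names were picked after their values were seen. The members and the 51 lists (1015 entries, 14 not analysed here) were chosen with earlier results of these data known. Replicate numbers in the titles were taken as a possible pairing: deviations of same-numbered mTEClo and cTEC libraries correlated at 0.14, 0.21 and 0.19, all over 0.1. Values for unlike numbers are not given here, so these do not show a pairing, and the main fit used no replicate block. Other pseudocounts, filters, scalings, sample sets, a replicate block and leaving out each library were tried. The fits were tested on simulated data. Promoters came from RefSeq GRCm38.p6, where 93.8% of 21273 matched symbols lay within 10000 bases of the deposited coordinates.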

Additional observations from a re-analysis of the deposited data

Results flagged for a closer look

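The differences below were set apart because the WT fold change minus the KO fold change of mTEClo over cTEC passed the limma test of that difference over all genes. All values are such differences on the log2 scale, and libraries labelled KO cTEC held more medullary RNA than WT cTEC, whose part in them was not tested. Among the largest rises in WT mTEClo, the values were 3.76 for Crct1, 3.86 for Calm4, 4.66 for Iapp, 3.02 for Crp, 3.26 for Cnfn, 3.72 for Ceacam10, 1.997 for Fam25c, 3.13 for Ivl and 3.17 for Chgb. Among the largest falls they were -1.52 for Gpm6b, -3.12 for Nrg2, -1.65 for Cd83, -2.11 for Pitpnm3, -1.66 for Il33 and -2.54 for Myh1. Among medullary markers they were 0.73 for Krt5, 1.46 for Cldn3, 1.62 for Cldn4, 1.58 for Ccl19, 2.27 for Aire, 2.24 for Fezf2, 1.77 for Spib, 1.798 for Tnfrsf11a and 1.43 for Tnfrsf11b. In the ranking of genes without overlap in WT, with a mean of 1 RPKM or more and without predicted models, the 5 largest positive values belonged to Iapp, Sprr2d (4.58), Spink3 (4.38), Fabp9 (4.37) and Skint2 (4.01). In the same ranking the 5 largest negative values belonged to Acta1 (-3.26), Nrg2, Ndufa4l2 (-2.63), Fam183b (-2.62) and Prrt1 (-2.55). Values for Krt16 (2.82) and for Igj (5.16), whose WT libraries overlapped, were added after they were seen. The calls of Fam183b and Fabp9 were lost when only 4 groups were fitted.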

How the results depend on the processing

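The counts of 4624 higher and 3536 lower genes moved by less than 1.5 times under every alternative, from 4007 to 4421 and from 2984 to 3283 when each library was left out. The count of genotype differences, 833, became 259 in the fit of 4 groups and ranged from 510 to 1528 when each library was left out. The cause was not tested. The difference in detected genes, 686, became 436 at 1 RPKM and ranged from 550 to 765 when each library was left out. With the replicate block, which assumes a pairing by replicate number, 4625 genes were higher, 3516 lower and 798 differed by genotype. Among the named genes the block changed the call of Mylpf alone, newly called at 0.66. Of 227 called genes among the 274 named, 201 kept the call under all alternatives, 22 lost it when some library was left out and 13 under some other setting. Of 1530 counts of list members, 1420 moved by less than 1.5 times. Sign changes were seen only in uncalled genes. After housekeeping centring the log2 fold change was -0.058 for Calr, -0.061 for Gabarap, -0.045 for Boc, -0.10 for Ccnd3 and -0.030 for Ifitm3, and after quantile normalization -0.15 for Calr, -0.012 for Gabarap and -0.014 for Boc. When each library was left out, it ranged from -0.0044 to 0.18 for Boc, -0.34 to 0.042 for Cck, -0.032 to 0.10 for Ccnd3, -0.56 to 0.38 for Cd80, -0.12 to 0.012 for Fgfr2, -0.18 to 0.27 for Icosl, -0.26 to 0.70 for Igj, -0.11 to 0.055 for Ltbr, -0.28 to 0.16 for Pdgfrb, -0.086 to 0.023 for Perp and -0.069 to 0.046 for Rpl13a. A filter at 1 RPKM removed low members, so that 11 neuroendocrine and 5 liver and pancreas genes were called higher in place of 17 and 11. The aligned sequence varied from 4.54 to 18.1 Gb among mTEClo libraries, which limits the low genes most in mTEClo 2.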
